A study of Mus musculus with 10 samples.

Results

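The genes described here serve the synthesis of prostaglandins and the response to them. They are the 10 mouse genes Ptgs1, Ptgs2, Ptges, Ptges2, Ptges3, Ptgis, Ptger1, Ptger4, Pla2g4a and Ptgfrn, found by symbol among the 57010 gene identifiers of the deposited table. In 9 of the 10 the mean value was at least 3 on the deposited log2 scale, which was the minimum for testing. Ptges lay under it with a mean of 2.93, and the lowest member above it was Ptger1 with 4.90. The set was put together with results of these libraries known, in particular the large difference of Ptgs2, so the differences of the members are given as descriptions and carry no p-value. Which members passed the threshold is stated only beside the share over all tested genes, and nothing is read from it.

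Prostaglandins are short-lived lipid mediators made on demand from arachidonate. A phospholipase frees arachidonate from membrane lipids, the cyclooxygenases Ptgs1 and Ptgs2 turn it into prostaglandin H2, and terminal synthases turn that into prostaglandin E2, D2, F2 alpha, prostacyclin or thromboxane, which act on G protein-coupled receptors of the same or nearby cells. In skeletal muscle, prostaglandins are known for effects on myoblast growth, survival and fusion and on protein turnover in fibres.

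RNA was sequenced from C2C12 cells, an established mouse myoblast line whose cells fuse into myotubes in low serum. The labels give a wild-type genotype and the cell type myoblast, but their protocols describe myotubes kept in low serum with insulin on collagen for 3 days and then given adenovirus. In the Arrdc2 group (n = 5 libraries) the virus carried Arrdc2, an alpha-arrestin, together with Gfp; in the GFP group (n = 5) it carried Gfp only. Cells of both groups therefore carried virus and Gfp, and all were collected after 48 h. The model is a single cell line with viral delivery, and no source used here names the promoter of the transgenes. The labels do not say that the libraries of a group came from separate cultures, and p-values therefore cover the spread among these libraries, which may be technical.

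Depth was 18.93 to 28.65 M (mega) reads per library. The GFP group averaged 22.4 ± 2.62 M and the Arrdc2 group 25.6 ± 2.09 M (SD, n = 5; p = 0.0714 by exact permutation, 2-sided). Reads of the delivered gene Arrdc2 averaged 102.7 ± 14.4 in GFP and 132 ± 15.6 in Arrdc2 after scaling for depth (SD, n = 5), a 1.29-fold difference (limma adjusted p = 0.0178). That call was lost under quantile normalization and without GFP library 3, GFP library 7 or Arrdc2 library 9, with adjusted p-values from 0.00831 to 0.0570 over all alternatives. The sources used here do not say if viral Arrdc2 transcripts were counted to that gene. Of 9 myotube markers 2 fell and 0 rose, and their summed reads ranged from 296596 to 323875 in GFP and from 275141 to 306526 in Arrdc2. That split depended on the scaling, since quantile normalization gave 1 fall (Myh8) and 2 rises (Myh4 and Ckm), and voom on total reads 2 of each. It also moved with single libraries, to 3 falls without GFP library 5, 1 rise and 2 falls without Arrdc2 library 6, and 1 rise and 3 falls without Arrdc2 library 10. Of 3 myoblast markers 2 rose (summed reads 2985 to 3707 in GFP, 3530.5 to 3777 in Arrdc2), and Myod1 passed as well without GFP library 5. Of 4 tested among 6 fibroblast markers 3 rose (summed reads 2599 to 3197 against 3602 to 4029), and of these Dcn was called under every alternative. Pi16 was lost under quantile normalization and without GFP library 3 (limma adjusted p up to 0.0629). Dpt was lost with no filter, median centring or no trend and without GFP library 4 or 7 or Arrdc2 library 9 or 11 (up to 0.0971), and the stricter filter left it untested. Summed macrophage markers were 143 to 164 reads in GFP and 166 to 189.9 in Arrdc2. Of 3 tested among 6 listed, 1 rose, Mrc1 (45.7 ± 5.89 to 63.7 ± 8.17 reads, SD, n = 5), and Cd68 and Itgam did not pass. Summed endothelial markers were 32.2 to 45.7 reads in GFP and 43.9 to 68.2 in Arrdc2. Only 1 of 5 listed was tested, Tek, and it rose (27.4 ± 4.86 to 44.4 ± 7.92 reads, SD, n = 5). The 5 adipocyte markers, the macrophage marker Adgre1 and the endothelial marker Tie1 each averaged under 1 read. Limma called 22.2% of the tested myotube, 66.7% of the myoblast, 75% of the fibroblast, 33.3% of the macrophage and 100% of the endothelial markers. Over all 15223 tested genes the share was 30.3% (14.5% higher and 15.8% lower). The part of these marker differences in the results that follow was not tested. In bulk RNA, fewer cells of a type and less of a transcript per cell cannot be told apart.

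Values are given as normalised reads, that is, whole reads recovered from the deposited log2 values and divided by the size factor of the library, and libraries are named by the column number of the deposited table (GFP 3 to 7; Arrdc2 6, 7, 9, 10 and 11). Of the 9 members tested, limma called 4 lower (Ptgs2, Ptges3, Ptger1 and Pla2g4a) and 1 higher (Ptgfrn) in the Arrdc2 libraries at an adjusted p of 0.05, beside 30.3% of all 15223 tested genes (14.5% higher and 15.8% lower). Centring on the median gene instead gave 1766 higher and 2960 lower calls, against 2212 higher and 2404 lower with the deposited scaling. Voom on recovered reads gave 2171 higher and 2392 lower calls with size factors, and 3063 higher and 1774 lower with total reads as the scaling. In 3 members, Ptgs2, Ptges3 and Ptger1, every Arrdc2 library lay below every GFP library, as in 11% of all tested genes, and in 0 members did every Arrdc2 library lie above, as in 8.71% (19.7% in either direction). Nothing is read from these counts, because the members were chosen from the same contrast. The median difference of the 9 members was -0.05 on the deposited log2 scale, and that of all tested genes was 0.00.

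**Figure D1:**
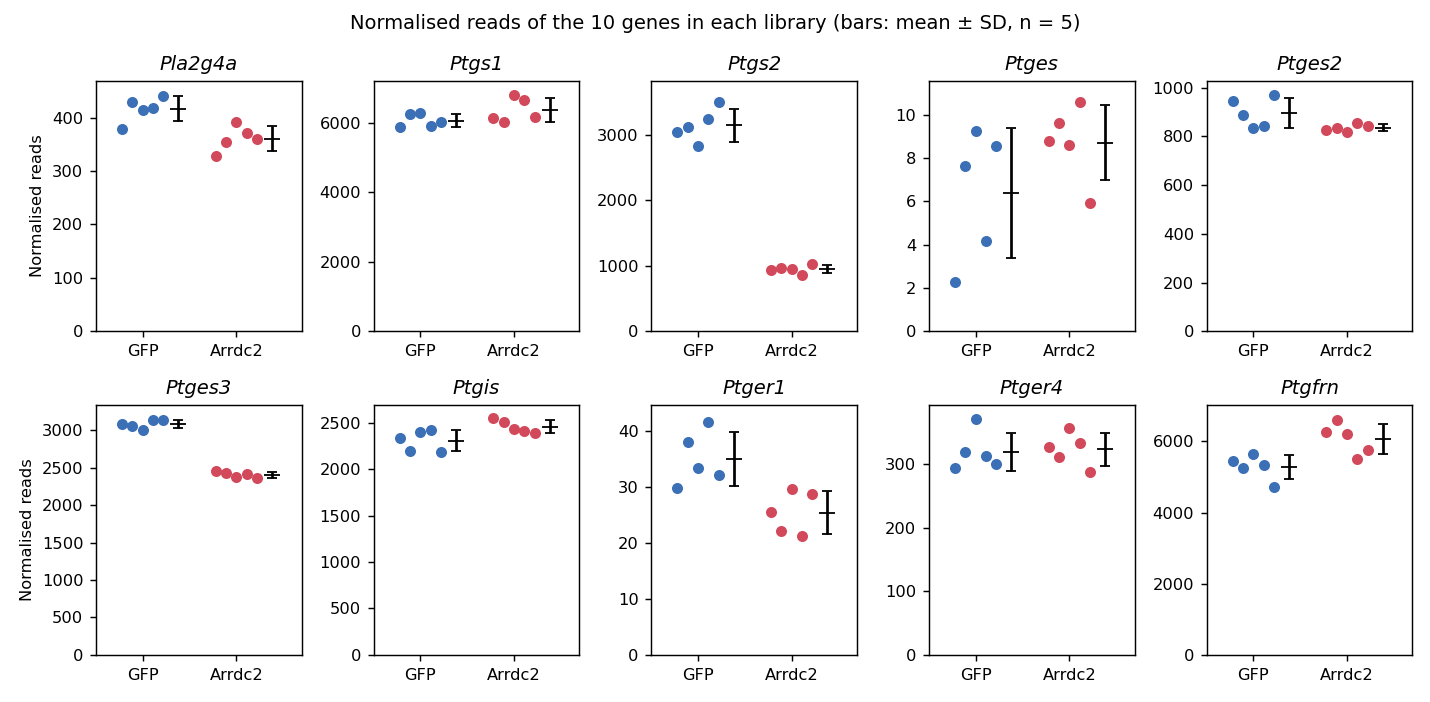
Normalised reads (vertical axes, each with its own scale from 0) of the 10 members in the 5 GFP and 5 Arrdc2 libraries, with points for libraries and bars for the group mean and SD. The Arrdc2 libraries of Ptgs2 lie between 857 and 1029 reads and those of GFP between 2824 and 3505; those of Ptgs1 overlap.

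Cytosolic phospholipase A2, encoded by Pla2g4a, is the calcium-activated enzyme that frees arachidonate for prostaglandin synthesis. Its normalised reads were 379, 430.0, 414, 418 and 441 in the GFP libraries (3 to 7) against 329, 354, 392, 370.4 and 360.0 in the Arrdc2 libraries (6, 7, 9, 10, 11). Arrdc2 libraries were lower, and 4 of 5 lay below the lowest GFP library, while Arrdc2 library 9 lay within the GFP range. The means were 416 ± 23.4 in GFP and 361 ± 23.2 in Arrdc2 (SD, n = 5), a 1.15-fold difference, or -0.11 on the deposited log2 scale.

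The inducible cyclooxygenase Ptgs2 (COX-2, ENSMUSG00000032487.9) held the largest difference among the members. The GFP libraries (3 to 7) had 3039, 3117, 2824, 3237 and 3505 normalised reads, and the Arrdc2 libraries (6, 7, 9, 10, 11) had 929, 965, 942, 857 and 1029. The groups were far apart, with the lowest GFP library well over the highest Arrdc2 library, and within each group the libraries kept close to each other (coefficient of variation 8.0% and 6.59%). Means were 3144 ± 252 and 945 ± 62.3 (SD, n = 5), which is 3.33-fold lower in Arrdc2, a change of -70.0%. On the deposited log2 scale, on which differences are shrunk, the difference was -1.26, the second largest in absolute size of the 15223 tested genes; with voom on recovered reads it was -1.74.

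The constitutive cyclooxygenase Ptgs1 (COX-1), which catalyses the same reaction and is present in most tissues at rest, did not share that difference in size. Its reads were 5863, 6251, 6263, 5889 and 6013 in the GFP libraries (3 to 7) against 6128, 6029, 6805, 6659.6 and 6157 in the Arrdc2 libraries (6, 7, 9, 10, 11). The groups overlapped, with Arrdc2 libraries 9 and 10 above all GFP libraries and the other 3 inside the GFP range. Means were 6056 ± 192 and 6356 ± 351 (SD, n = 5), 1.05-fold higher in Arrdc2, or 0.05 on the deposited log2 scale.

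Because both enzymes feed the same product, their levels were also set side by side per kilobase of annotated exon. Ptgs1 was the more abundant transcript in all 10 libraries, at 1559 ± 49.5 reads per kilobase in GFP and 1636 ± 90.3 in Arrdc2, against 687 ± 54.9 and 206 ± 13.6 for Ptgs2 (SD, n = 5). Ptgs2 made up 30.5%, 29.7%, 27.7%, 31.8% and 33.1% of the cyclooxygenase reads per kilobase in the GFP libraries (3 to 7) against 11.4%, 12.0%, 10.5%, 9.84% and 12.4% in the Arrdc2 libraries (6, 7, 9, 10, 11). The share was thus 30.6% ± 2.06 in GFP and 11.2% ± 1.05 in Arrdc2 (SD, n = 5), with no overlap. The ratio of Ptgs1 to Ptgs2 per kilobase was 2.28 ± 0.226 in GFP and 7.97 ± 0.860 in Arrdc2. The sum of both was 2246 ± 56.2 reads per kilobase in GFP and 1843 ± 83.7 in Arrdc2. The summed cyclooxygenase transcript thus differed by less than Ptgs2 itself. Because Ptgs1 differed little, the share, the ratio and the sum mostly restate the Ptgs2 difference.

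**Figure D2:**
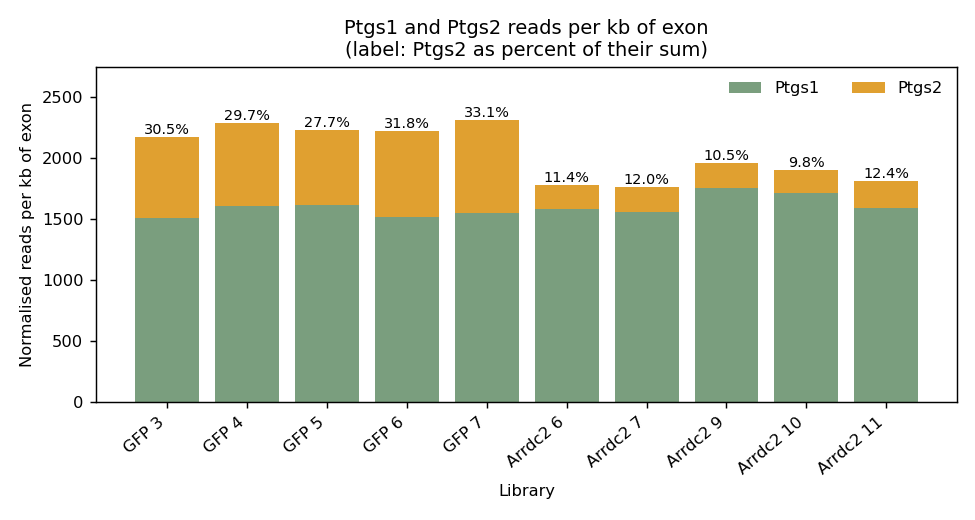
Levels of Ptgs1 and Ptgs2 in normalised reads per kilobase of exon, and the share of Ptgs2 in their sum in percent, for each library of the GFP and Arrdc2 groups. The share lies between 27.7% and 33.1% in GFP and between 9.84% and 12.4% in Arrdc2, while Ptgs1 overlaps between the groups.

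The sequences before the starts of Ptgs2 and Ptgs1 are shown because these cyclooxygenase genes, which feed the same product, differed so unequally between the groups. They are the 250 bases upstream of the RefSeq start of each gene, in the GRCm38.p6 build, on the plus strand, 5′ to 3′; the deposited table was made on GRCm39, so these positions apply to GRCm38.p6 alone. For Ptgs2 the window is chr1:150099781-150100030, followed by the first 30 bases of exon 1 at chr1:150100031-150100060, and for Ptgs1 it is chr2:36230176-36230425. Capitals mark the matches, on either strand, to 7 motifs that were searched.
Ptgs2 upstream: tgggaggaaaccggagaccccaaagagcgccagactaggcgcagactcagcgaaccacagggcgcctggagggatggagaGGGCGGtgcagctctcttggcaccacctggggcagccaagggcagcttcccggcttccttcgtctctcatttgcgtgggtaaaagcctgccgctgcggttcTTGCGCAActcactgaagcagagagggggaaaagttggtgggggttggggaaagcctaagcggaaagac
Ptgs2 first exon: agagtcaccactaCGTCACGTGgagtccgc
Ptgs1 upstream: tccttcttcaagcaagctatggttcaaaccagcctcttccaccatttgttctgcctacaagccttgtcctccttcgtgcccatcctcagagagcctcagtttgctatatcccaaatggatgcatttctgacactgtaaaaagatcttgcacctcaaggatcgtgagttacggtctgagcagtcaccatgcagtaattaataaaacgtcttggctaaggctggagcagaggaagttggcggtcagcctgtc

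The motifs were searched in windows of 250 bases before to 50 bases after the start, of which 32851 were available over all genes and which covered 8 of the 10 members. The Ptgs2 window held TTGCGCAA, the palindrome bound by C/EBP factors, from base -69, and 0.183% of all windows held it. It held CGTCACGTG, in which a cyclic AMP response half-site and an E-box overlap, from base 14, as did 0.451% of all windows. Bases are counted from the RefSeq start, and the start used in these cells was not examined. It also held the GC box GGGCGG from base -170, which was common, at 35.7% of windows, and which the windows of Ptger4, Ptges, Ptges3 and Ptgfrn held too. The letters TATAAA of the TATA box (13.6% of windows) were matched from base -200 in the Pla2g4a window. The heat shock element core GAANNTTC (7.86%) was matched from base -157 in the Ptges2 window. The AP-1 site TGACTCA (5.20%) and the ATF4 composite element TGATGCAA (0.895%) were matched in 0 member windows. The Ptgs1 window held none of the 7 motifs. The 7 motifs were a list fixed by hand and were not found by comparing windows. Nothing is therefore read from which windows held or lacked them. A match describes these letters and not the binding of a factor.

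Of the terminal synthases of prostaglandin E2, Ptges3 stood apart between the groups and the other 2 overlapped. Ptges3 encodes p23, a cytosolic protein described as a prostaglandin E synthase and better known as a co-chaperone of HSP90. Its reads were 3079, 3059.7, 3001, 3141 and 3132 in the GFP libraries (3 to 7) against 2448, 2428, 2368, 2411 and 2365.5 in the Arrdc2 libraries (6, 7, 9, 10, 11). All Arrdc2 libraries were lower than all GFP libraries, and the libraries of a group were the tightest of any member (coefficient of variation 1.84% in GFP and 1.52% in Arrdc2). Means were 3082 ± 56.8 and 2404 ± 36.6 (SD, n = 5), 1.28-fold lower in Arrdc2, or -0.27 on the deposited log2 scale, and 2.66% of tested genes differed by more in either direction. Reads of the pseudogene Ptges3-ps, looked up after the values of Ptges3 were seen, fell from 179 ± 14.5 to 125 ± 3.98 (SD, n = 5; 1.44-fold lower, limma adjusted p = 0.00011). Reads of such near copies can be shared between them, so the exact split between Ptges3 and its pseudogene is uncertain.

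Ptges2 encodes a membrane-associated E synthase that is made constitutively. Its reads were 946, 889, 833, 845 and 971 in the GFP libraries (3 to 7) against 825, 836, 819, 855 and 844 in the Arrdc2 libraries (6, 7, 9, 10, 11). The Arrdc2 libraries sat at the lower end of the GFP range, and 2 of them lay below it. Means were 897 ± 61.0 and 836 ± 14.3 (SD, n = 5), 1.07-fold lower in Arrdc2, or -0.07 on the deposited log2 scale.

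Ptges encodes the inducible microsomal E synthase, the enzyme usually coupled to COX-2, and was barely present in either group. Its reads were 2.29, 7.61, 9.25, 4.15 and 8.56 in the GFP libraries (3 to 7) against 8.79, 9.63, 8.58, 10.6 and 5.93 in the Arrdc2 libraries (6, 7, 9, 10, 11). The groups overlapped and the libraries scattered widely, so that no difference was detectable at this depth. Means were 6.37 ± 3.01 and 8.70 ± 1.74 (SD, n = 5), and the gene was too low to be tested.

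Ptgis, prostacyclin synthase, turns prostaglandin H2 into the vasodilator prostacyclin. The GFP libraries (3 to 7) had 2334, 2195, 2395, 2422 and 2185 reads, and the Arrdc2 libraries (6, 7, 9, 10, 11) had 2547, 2509, 2430.1, 2409 and 2389. The groups overlapped, with 3 Arrdc2 libraries above all GFP libraries and the other 2 at the upper end of the GFP range. Means were 2306 ± 111 and 2457 ± 67.7 (SD, n = 5), 1.07-fold higher in Arrdc2, or 0.07 on the deposited log2 scale. The gene 1110018N20Rik overlaps Ptgis on the opposite strand but had few reads (27.6 on average in GFP and 28.0 in Arrdc2).

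Both prostaglandin E2 receptors among the members were low. Ptger4 encodes EP4, which raises cyclic AMP, and had 294, 318, 370.1, 312 and 299 reads in the GFP libraries (3 to 7) against 327, 310.2, 357, 333 and 288 in the Arrdc2 libraries (6, 7, 9, 10, 11). The groups lay over each other, with means of 319 ± 30.2 and 323 ± 25.8 (SD, n = 5), a 1.01-fold difference. Its difference of 0.01 on the deposited log2 scale took the opposite sign under median centring, under quantile normalization and without GFP library 3, GFP library 7 or Arrdc2 library 9. Ptger4 overlaps Ttc33 on the opposite strand, a gene that limma did not call (adjusted p = 0.391).

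Ptger1 encodes EP1, which raises intracellular calcium, and was the lowest of the tested members. Its reads were 29.8, 38.1, 33.3, 41.5 and 32.1 in the GFP libraries (3 to 7) against 25.5, 22.2, 29.6, 21.2 and 28.7 in the Arrdc2 libraries (6, 7, 9, 10, 11). All Arrdc2 libraries lay below all GFP libraries, but the gap between the nearest libraries, 29.8 in GFP and 29.6 in Arrdc2, was under 1 read. Means were 34.9 ± 4.76 and 25.4 ± 3.76 (SD, n = 5), 1.38-fold lower in Arrdc2, though only -0.05 on the deposited log2 scale, which shrinks such low genes most.

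Ptgfrn is named as a negative regulator of the prostaglandin F2 alpha receptor and encodes an immunoglobulin-family membrane protein that binds the tetraspanins CD9 and CD81. It had 5438, 5237, 5640.3, 5345 and 4730.5 reads in the GFP libraries (3 to 7) against 6252, 6599, 6215, 5511 and 5757 in the Arrdc2 libraries (6, 7, 9, 10, 11). Arrdc2 libraries were higher in 4 of 5, and Arrdc2 library 10 lay inside the GFP range. Means were 5278 ± 340.2 and 6067 ± 432 (SD, n = 5), 1.15-fold higher in Arrdc2, or 0.16 on the deposited log2 scale, the largest positive difference among the members.

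**Figure D3:**
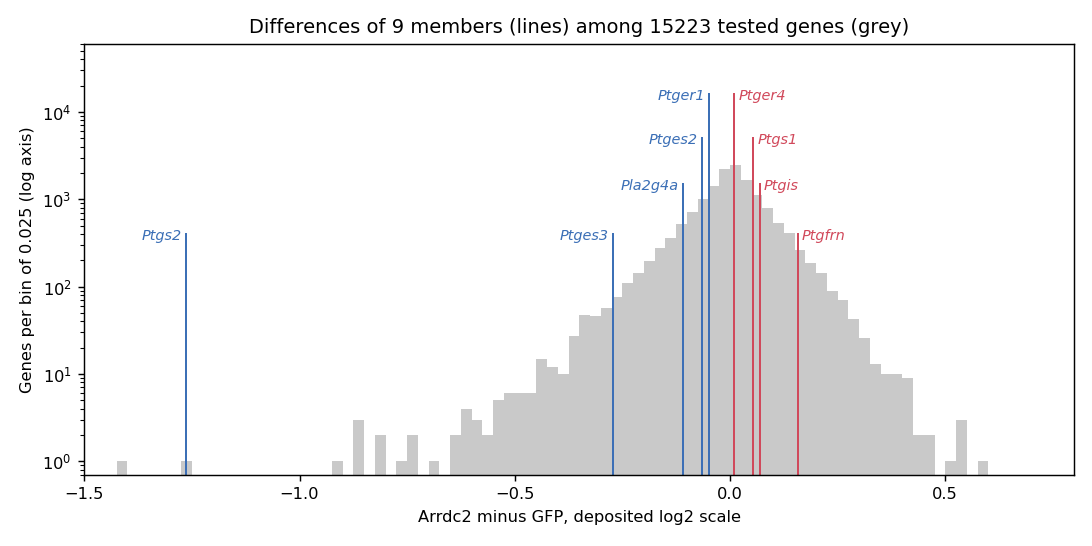
Distribution of the Arrdc2 minus GFP difference on the deposited log2 scale over the 15223 tested genes (grey, genes per bin on a log axis), with vertical lines at the 9 tested members (blue lower, red higher in Arrdc2; line height has no meaning). Ptgs2 at -1.26 lies in the far lower tail and Ptges3 at -0.27 in its shoulder, while the other 7 lie between -0.11 and 0.16.

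Ordered by reads per kilobase of exon in GFP, the members ran from Ptgs1 (1559) through Ptges3 (1390.4), Ptgis (898), Ptgs2 (687), Ptgfrn (504), Ptges2 (177), Pla2g4a (65.1), Ptger4 (48.0) and Ptger1 (6.40) to Ptges (1.62). In the Arrdc2 libraries the order was the same except that Ptgs2 (206) stood below Ptgfrn (579.8). Within a group the ranges of neighbours in these orders did not overlap, except for Pla2g4a and Ptger4 in the Arrdc2 group (56.5 ± 3.63 and 48.6 ± 3.87 reads per kilobase, SD, n = 5). Even so, Pla2g4a lay above Ptger4 in every single library.

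Across the 10 libraries, the 5 genes whose deposited values followed Ptgs2 most closely were the heat shock chaperones Hsph1 (Pearson r = 0.996) and Hspa1b (0.994), the autophagy receptor Sqstm1 (0.994), the tRNA methyltransferase Mettl6 (0.992) and the member Ptges3 (0.992). These coefficients mostly restate the gap between the 2 groups, which all 10 points share, and 324 of the other 15222 tested genes passed 0.95. With the group means removed they were 0.577, 0.487, 0.643, 0.810 and 0.399. Hsph1 went from 13953 ± 522 to 6640.4 ± 262 reads and Hspa1b, whose reads may be shared with its near copy Hspa1a, from 3579 ± 102 to 955 ± 108 (SD, n = 5). Among the other tested members, r with Ptgs2 was 0.81 for Pla2g4a, 0.80 for Ptger1, 0.65 for Ptges2, -0.15 for Ptger4, -0.55 for Ptgs1, -0.70 for Ptgis and -0.77 for Ptgfrn. With group means removed the highest of these 7 was 0.43 for Ptges2 and the lowest -0.69 for Ptger4.

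The rest of the eicosanoid pathway was described with 39 genes outside the members, of which 10 were too low to be tested. Of the 29 tested, 19 were not called, 8 rose and 2 fell at a limma adjusted p of 0.05, a share of 34.5% that is near the 30.3% of all tested genes, with a median difference of 0.03 on the deposited log2 scale. The strongest of these was a fall of the exporter Abcc4, and the receptors held 0 calls. The pathway genes were listed with earlier results of these data known, so nothing is read from their counts.

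Of the 12 tested genes for release and handling of arachidonate (13 listed) 4 rose and 0 fell (33.3%, near the 30.3% of all tested genes). Pla2g6, a calcium-independent phospholipase A2, rose from 1207 ± 66.9 to 1476 ± 64.6 reads (1.22-fold; 0.20 ± 0.03 SE on the deposited log2 scale; limma adjusted p = 0.000105), with all Arrdc2 libraries above all GFP libraries. Acsl4, which activates arachidonate to its acyl-CoA, rose 1.21-fold (limma adjusted p = 0.000949), and Lpcat3, which returns arachidonate to phospholipids, rose 1.25-fold (limma adjusted p = 0.00258). Pla2g4e, a calcium-dependent N-acyltransferase of the Pla2g4a family, rose from 44.9 ± 13.2 to 67.0 ± 13.8 reads (1.49-fold; limma adjusted p = 0.0228). That last call was lost without GFP library 4 (adjusted p = 0.0534), GFP library 5 (0.0681), Arrdc2 library 7 (0.0546) or Arrdc2 library 11 (0.0711), in each case by limma. It was also lost with no filter and with median centring. The phospholipase activator Plaa was close to the threshold (1.07-fold lower, limma adjusted p = 0.0589) and passed it without GFP library 5 and with a stricter filter, median centring or no trend, with adjusted p-values of 0.0209 to 0.282 over the alternatives. Pla2g15 (1.1-fold higher; limma adjusted p = 0.102, 0.0409 to 0.261 over the alternatives) passed without GFP library 6 and with voom on total reads.

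Among 4 tested terminal synthases outside the members (7 listed) 1 rose (25% beside 30.3% of all tested genes). Akr1b3, an aldose reductase that also makes prostaglandin F2 alpha, rose from 3940.4 ± 188 to 4651 ± 221 reads (1.18-fold; 0.19 ± 0.03 SE; limma adjusted p = 0.000309) without overlap of the groups. Ptgds, the lipocalin-type D synthase, was at 97.0 ± 8.34 and 107.5 ± 13.6 reads (limma adjusted p = 0.332), and Cbr1 and Prxl2b did not pass either. Hpgds, Tbxas1 and Akr1c18 were under the minimum for testing, with 0.193 to 7.52 reads on average.

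The prostanoid receptors were low or at the limit of detection. Of 7 outside the members, 3 were tested and 0 passed with limma or voom, while 1, Ptgir, had an unadjusted p under 0.05. The prostacyclin receptor Ptgir had 39.0 ± 9.43 reads in GFP and 55.2 ± 14.5 in Arrdc2 (SD, n = 5; 1.42-fold, 95% interval 1.06 to 1.87, limma adjusted p = 0.0602), and it passed the threshold without GFP library 4, Arrdc2 library 6 or Arrdc2 library 7 and with voom on total reads (limma adjusted p 0.0206 to 0.180 over the alternatives). The prostaglandin F2 alpha receptor Ptgfr, whose negative regulator is Ptgfrn, had 13.8 ± 2.63 and 16.4 ± 3.97 reads (95% interval of the fold 0.831 to 1.62), and the thromboxane receptor Tbxa2r 14.1 ± 6.25 and 15.5 ± 2.99 (0.785 to 1.71). Ptger2, Ptger3 and Ptgdr2 averaged under 3 reads in each group, and Ptgdr had 0 reads in all 10 libraries, so no difference was detectable for them at this depth.

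Of 6 transport and breakdown genes, all tested, 1 rose and 2 fell (50% beside 30.3% of all tested genes). Abcc4 encodes an ATP-driven pump that exports prostaglandins from cells, and had 659, 748, 742, 718 and 646 reads in the GFP libraries (3 to 7) against 399.7, 387, 379.6, 359.8 and 339 in the Arrdc2 libraries (6, 7, 9, 10, 11). The groups were wide apart, with means of 703 ± 47.4 and 373 ± 23.9 (SD, n = 5), a 1.88-fold fall (-0.53 ± 0.04 SE on the deposited log2 scale; limma adjusted p = 2.76e-09). Hpgd, which inactivates prostaglandins by oxidising the 15-hydroxyl group, had 36.6, 33.0, 23.1, 32.2 and 33.2 reads in the GFP libraries (3 to 7) against 65.9, 55.9, 43.9, 53.7 and 49.4 in the Arrdc2 libraries (6, 7, 9, 10, 11). It was low but without overlap, rising 1.7-fold from 31.6 ± 5.04 to 53.8 ± 8.18 (limma adjusted p = 0.0014). Ptgr1, which reduces the products of Hpgd, fell 1.16-fold from 1361 ± 131 to 1172 ± 87.5 reads (limma adjusted p = 0.0150). The uptake transporter Slco2a1 was low and did not pass (13.1 ± 2.12 and 12.0 ± 3.99 reads, limma adjusted p = 0.757), nor did the reductases Ptgr2 and Zadh2.

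In the lipoxygenase branch, which turns the same arachidonate into leukotrienes, 2 of 4 tested genes rose (6 listed; 50% beside 30.3% of all tested genes). Alox5ap, the membrane protein that presents arachidonate to 5-lipoxygenase, rose from 85.6 ± 16.8 to 119 ± 8.96 reads (1.40-fold; limma adjusted p = 0.0045), and Lta4h, which makes leukotriene B4, from 1844 ± 89.6 to 2216 ± 108 (1.2-fold; limma adjusted p = 0.000183). Alox5 itself was abundant in both groups and did not pass (8791 ± 790 and 8484 ± 562 reads, limma adjusted p = 0.541).

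**Figure D4:**
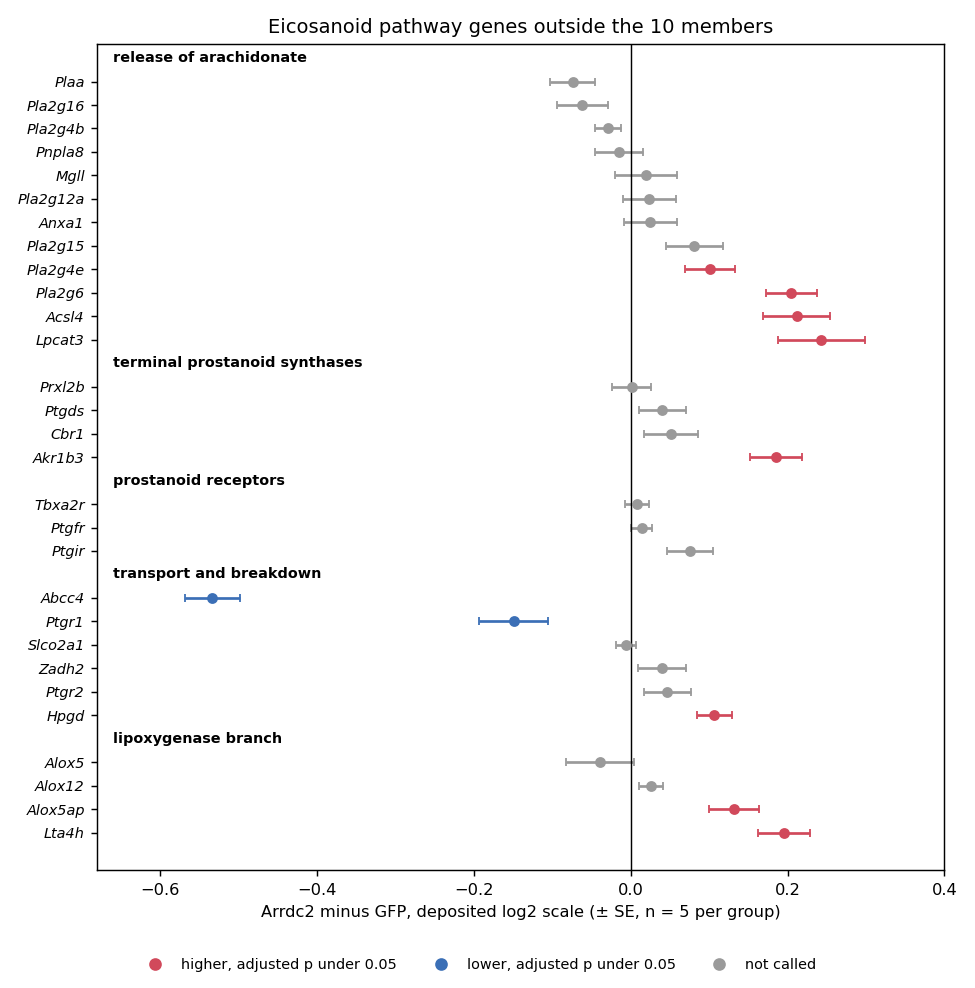
Differences of the tested eicosanoid pathway genes outside the members, Arrdc2 minus GFP on the deposited log2 scale, with bars for the SE and colours for genes past a limma adjusted p of 0.05, grouped by role. Abcc4 at -0.53 is the farthest from 0, 8 genes lie above 0 past the threshold and 2 below.

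Genes with known links to the members were described in the same way, beginning with Ptgs2. These lists too were chosen with earlier results of these data known, so nothing is read from their counts or medians. Of 14 transcription factors and inhibitors known to act on the Ptgs2 promoter 5 fell and 0 rose (35.7% beside 30.3% of all tested genes; median difference -0.04). Cebpb, a C/EBP factor, fell from 567 ± 80.5 to 421.5 ± 78.7 reads (1.34-fold; limma adjusted p = 0.00438) and Cebpd 1.25-fold (limma adjusted p = 0.0132). The AP-1 subunit Fos fell from 159.7 ± 22.8 to 114 ± 17.3 reads (1.40-fold; limma adjusted p = 0.00374), and its partner Jun from 4529 ± 193 to 4025 ± 241 (1.13-fold; limma adjusted p = 0.00648). Nfkb2 fell 1.23-fold (limma adjusted p = 5.14e-05), whereas Nfkb1, Creb1 and Egr1 did not pass, and Rela passed only without GFP library 7 or Arrdc2 library 6 (limma adjusted p = 0.0953, and 0.0390 to 0.313 over the alternatives).

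The Ptgs2 transcript is also known for AU-rich elements that set how long it lasts. Of 8 proteins that bind such elements 2 fell and 0 rose (25%; median -0.04). Zfp36l2, which promotes decay, fell from 2262 ± 82.9 to 1725 ± 135 reads (1.31-fold; limma adjusted p = 7.9e-06), and Hnrnpd (AUF1) 1.16-fold (limma adjusted p = 0.000731). Elavl1 (HuR), which stabilises such transcripts, had 2682 ± 61.2 and 2571 ± 46.0 reads (limma adjusted p = 0.203).

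A further list held inflammatory ligands and receptors with links to Ptgs2 induction, together with the interleukin 1 receptor antagonist Il1rn, which blocks that receptor, and the adaptor Myd88. Of its 8 tested genes (10 listed) 2 fell and 0 rose (25%; median -0.02). These were the interleukin 1 receptor Il1r1 (1.17-fold; limma adjusted p = 0.0123) and Tlr4, the receptor for bacterial lipopolysaccharide (1.12-fold; limma adjusted p = 0.00881). The ligands were low, with 41.3 ± 9.6 and 32.6 ± 7.5 reads of Il6 (limma adjusted p = 0.196) and 11.9 ± 4.23 and 10.7 ± 1.93 of Il1b (limma adjusted p = 0.716). The antisense RNA Ptgs2os, which lies upstream of Ptgs2 on the opposite strand and was looked up after the values of Ptgs2 were seen, averaged 13.4 reads in GFP and 6.88 in Arrdc2 with overlapping groups (limma adjusted p = 0.0217). That call was lost with no filter, with no trend and without GFP library 4, GFP library 6, Arrdc2 library 7 or Arrdc2 library 11, with adjusted p-values of 0.00182 to 0.146 over the alternatives.

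For Ptges3, whose protein acts with HSP90, 8 genes of HSP90 and its co-chaperones were examined. Of these 5 fell and 0 rose (62.5% beside 30.3% of all tested genes; median -0.27). Because the list was chosen with earlier results of these data known, its count and median are descriptions only. Hsp90aa1, the stress-inducible HSP90, fell 1.58-fold (limma adjusted p = 1.36e-09), and Hsp90ab1, the constitutive form, 1.36-fold (limma adjusted p = 4.21e-07). The ATPase activator Ahsa1 fell from 4875 ± 180 to 3448 ± 168 reads (1.41-fold; limma adjusted p = 4.72e-08), the adaptor Stip1 1.33-fold (limma adjusted p = 5.76e-08) and the immunophilin Fkbp4 1.21-fold (limma adjusted p = 3.3e-05). The kinase co-chaperone Cdc37 did not pass (4869 ± 156 and 4781 ± 256 reads, limma adjusted p = 0.659), nor did Fkbp5 and Sugt1.

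For Ptgfrn, 7 genes of tetraspanins, the related protein Igsf8 and the muscle fusion proteins were examined, and 4 rose and 0 fell (57.1%; median 0.09). Cd9 rose from 6133 ± 191 to 7461 ± 547 reads (1.22-fold; limma adjusted p = 0.000137) and Cd81 1.14-fold (limma adjusted p = 0.000564), in both without overlap of the groups. Cd82 rose 1.12-fold (limma adjusted p = 0.0248) and Cd151 1.08-fold (limma adjusted p = 0.0466). Cd82 no longer passed limma with no filter, with no trend, or without GFP library 3 (adjusted p = 0.0684), GFP library 6 (0.0619), GFP library 7 (0.0788) or Arrdc2 library 9 (0.0604). Nor did Cd151 pass limma with no filter, with median centring, or without GFP library 3 (adjusted p = 0.0821), 6 (0.132) or 7 (0.101), or Arrdc2 library 7 (0.0673), 9 (0.0722), 10 (0.105) or 11 (0.0855). The count of the list was then 2 without GFP library 3, 6 or 7 or Arrdc2 library 9. The fusion proteins Mymk (17122 ± 839 and 16614 ± 749 reads) and Mymx (820.4 ± 82.4 and 815 ± 78.9) did not pass (limma adjusted p = 0.473 and 0.930).

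For EP4 (Ptger4), which signals through cyclic AMP, 8 transcripts known to be induced by cyclic AMP were examined, and 5 fell and 0 rose (62.5%; median -0.12), while Ptger4 itself overlapped between the groups. Areg, an epidermal growth factor receptor ligand, fell from 260.1 ± 25.9 to 180.2 ± 33.3 reads (1.44-fold; limma adjusted p = 0.0008). The kinase Sik1 fell 1.2-fold (limma adjusted p = 0.00177). The nuclear receptors Nr4a1, Nr4a2 and Nr4a3 fell 1.24-fold, 1.28-fold and 1.32-fold (limma adjusted p = 0.000975, 0.00607 and 0.0231). Nr4a3 was lost without GFP library 4 or with voom on total reads, and Crem (limma adjusted p = 0.064) was called higher in both; their adjusted p-values over the alternatives were 0.00946 to 0.0699 and 0.00998 to 0.160. The phosphodiesterases Pde4b and Pde4d did not pass (limma adjusted p = 0.586 and 0.912).

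**Figure D5:**
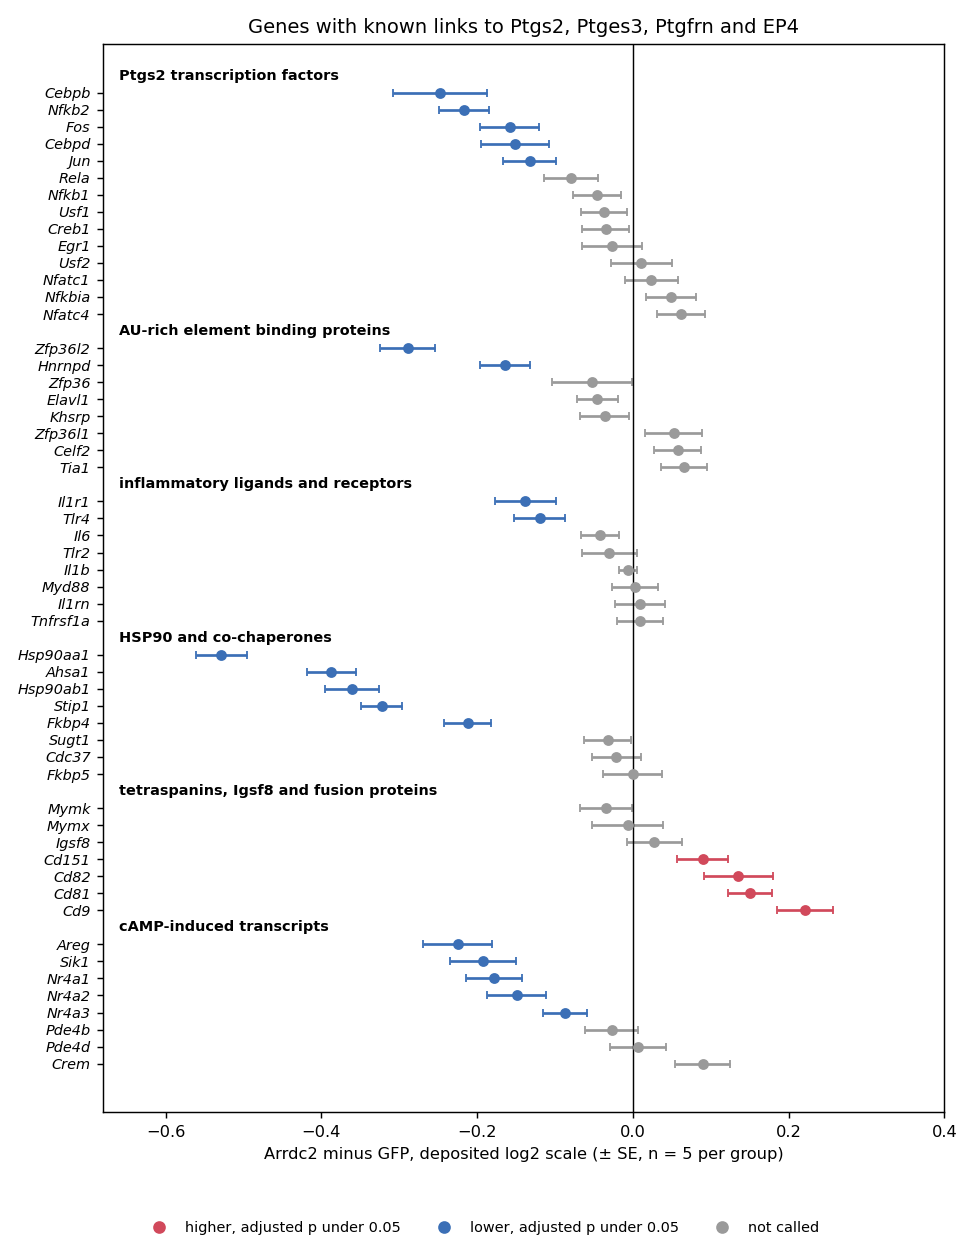
Differences of tested genes with known links to Ptgs2, Ptges3, Ptgfrn and EP4, Arrdc2 minus GFP on the deposited log2 scale, with bars for the SE and colours for genes past a limma adjusted p of 0.05. In the list of HSP90 and its co-chaperones 5 of 8 genes lie below 0 past the threshold, down to -0.53 for Hsp90aa1. In the tetraspanin list 4 of 7 lie above 0 past the threshold, of which Cd82 and Cd151 lost the call under some alternatives.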

How the data were processed

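Polyadenylated RNA of 10 C2C12 libraries, 5 per group, was sequenced on strand-specific libraries, per the labels' protocols. The authors deposited a table of regularized log2 values, in which the deviation of each library from the gene mean is shrunk, most strongly at few reads. STAR 2.7.10a, DESeq2 1.30.1 and GRCm39 appear in the submitters' processing notes; no source used here gives the counting tool, its strand setting or the annotation. Columns are numbered differently from the labels' replicates, so they were taken as unpaired replicates of the group they name, and 0 columns were left unused.

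Symbols came from GENCODE vM21 by identifier without version (52029 of 57010 matched), and exon lengths from the same GRCm38 annotation. Genes with a mean of at least 3 (15223) entered a linear model on group in limma 3.58.1 (R 4.3.3) with a mean-variance trend, with Benjamini-Hochberg adjustment over the whole set, at 0.05. A difference on the deposited log2 scale understates the change. "Rose" and "fell" are used of genes past that threshold.

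Whole reads were recovered from the deposited log2 values by inverting the penalised negative binomial fit; for 10547 held-out genes that averaged 1 read or more, 99.0% of values lay no more than 0.1 reads from a whole number (20% would by chance), a share that dropped to 79.7% for the most abundant genes. Members deviated by at most 0.0271 reads. Folds are ratios of mean normalised reads; 95% intervals come from limma voom. Chi-square per gene between libraries of a group was 2.65 to 17.0, more than sampling noise for every pair. The scripts were tested on simulated data.

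The members, the gene lists and the rule for naming were chosen with earlier results of these data known. The rule named the members, the tested pathway genes past the threshold, up to 4 called genes of each linked list by absolute difference, and the 5 genes most like Ptgs2; Jun, Fkbp4, Nr4a3, genes next to members and uncalled genes quoted for contrast were added after their values were seen. Alternatives were other filters, scalings, a fit with no trend, voom and leaving out each library. An item withheld for evaluation is not reported here. Promoters are RefSeq windows of GRCm38.p6.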

Additional observations from a re-analysis of the deposited data

Results flagged for a closer look

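In 1 of 80 groups of 5 libraries examined, a library stood apart from the rest of its group, where about 4 would by chance. Nr4a1, a nuclear receptor induced by cyclic AMP, had 350.02 normalised reads in Arrdc2 library 9, below the other Arrdc2 libraries (424.9 to 442).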

How the results depend on the processing

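No paired analysis was possible because the column numbers of the deposited table carry no replicate numbers of the labels. The count of genes called, 4616 of all tested, was 3697 with no filter, 4476 with a stricter filter, 4726 with median centring, 4444 with quantile normalization, 4518 with no trend, 4563 with voom, 4837 with voom on total reads (chosen after seeing the data) and 3920 to 4598 when libraries were left out in turn. The Ptgs2 difference of -1.26 was -1.74 with voom and -1.70 with voom on total reads, where values are not shrunk. With no filter, 1 instead of 2 pathway genes was called lower and 2 instead of 4 tetraspanin-list genes higher. The AU-rich list had 1 gene called higher with quantile normalization and 2 with voom on total reads, instead of 0, and the cyclic AMP list 1 with voom on total reads. With libraries left out in turn, 2 to 4 tetraspanin-list genes and 0 to 1 cyclic AMP-list genes were called higher. A tally of 510 results covered the 30 called pathway and linked-list genes picked by the naming rule, under 17 alternatives. It leaves out Arrdc2, Ptgs2os, Nr4a3 and the cell type markers, whose dependence on the settings is described where they are named. Jun, Fkbp4 and Ptges3-ps are left out as well. They kept the call under every alternative (limma adjusted p up to 0.0304, 0.000383 and 0.000517). Of the 510, 488 kept direction and call, 22 lost the call and 0 reversed. The lost calls were 9 of Cd151, 6 of Cd82, 6 of Pla2g4e and 1 of Ptgr1 (limma adjusted p = 0.0528 with no filter). The cause was not tested. A DESeq2 alternative that had been planned was not run, since log2 values were deposited. Depth limits Ptges, Ptger1 and the low receptors.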
